A study of Mus musculus with 18 samples.

Results

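The stefins are small inhibitors of cysteine proteases, and 5 of their mouse genes are described here: Stfa1, Stfa2, Stfa3, Cstdc6 and Cstb. They were chosen by their behaviour on these same arrays, in the comparison of monocytes and in that of the cell types, and Cstdc6 also in that of neutrophils. Each gene was read from the probe set annotated to its symbol alone. By that rule 4 of the 5 genes had a probe set of their own, among 19938 genes with one, and all 4 passed the expression filter with 13387 genes in all. Stfa1 had none and was measured only inside a probe set that it shares with relatives.

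The series holds 18 arrays of cells sorted from the bone marrow of C57BL/6 mice, of which 9 hold monocytes sorted as Ly-6C(hi) and 9 hold neutrophils. Per cell type, 4 arrays are labelled Zeb2-deficient, from mice with floxed Zeb2 alleles, Zeb2(fl/fl), and Mx1-Cre, a recombinase driven by an interferon-responsive promoter that is not specific to one cell type. Another 4 arrays are controls with the floxed alleles and no Cre. Both groups were given poly(I:C), a synthetic double-stranded RNA that triggers interferon, as 150 µg on 2 occasions inside 48 h, and cells were taken 3 weeks after that. A floxed control that had no poly(I:C) gave 1 array per cell type, and it entered no test. What Cre itself does and what loss of Zeb2 does cannot be told apart, because the controls carry no Cre. Whether replicate arrays stand for different animals is not stated in the labels, so p-values measure only a spread between arrays that may be technical. Precision is limited by the number of arrays.

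Stefins act inside the cell: they lack a signal peptide and occupy the active site cleft of papain-like proteases such as the cathepsins, reversibly and tightly. Cstb encodes stefin B, which most tissues make and whose loss in humans causes a progressive myoclonus epilepsy. The other members belong to the stefin A group, which is a single gene in humans (CSTA) and a cluster of near copies in mice. Zeb2 encodes a zinc-finger repressor that binds E-box sequences such as CACCTG.

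In the RefSeq gene order, 11 genes of the stefin A group follow each other on chromosome 16 as Csta1, Stfa2l1, Cstdc4, Csta3, Csta2, Stfa1, Cstdc3, Cstdc6, Cstdc5, Stfa2 and Stfa3. Cstb lies on chromosome 10. On the array, 6 of the 11 had a probe set of their own, 3 had only a shared one and 2 had neither. One shared probe set (10439292) is annotated to Cstdc6, Cstdc5 and Stfa1, and the other (10435497) to Stfa2l1 and Stfa2. Signal in a shared probe set cannot be assigned to 1 of its genes, and probes of the single-gene sets may also bind relatives. The reference table lists Stfa3 as an older name of Stfa1 too, so the symbol here follows the probe annotation.

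The promoters of the 3 members found in the RefSeq promoter table (build GRCm38.p6) are printed because these near copies were read side by side below. Each runs from 250 bases before the start site to 50 after it, 5′ to 3′ on the gene's strand, and capitals mark CACCTG. They lie at chr16:36276898-36277197 (plus strand) for Stfa1, chr16:36408314-36408613 (minus strand) for Stfa2 and chr16:36455343-36455642 (minus strand) for Stfa3.
Stfa1: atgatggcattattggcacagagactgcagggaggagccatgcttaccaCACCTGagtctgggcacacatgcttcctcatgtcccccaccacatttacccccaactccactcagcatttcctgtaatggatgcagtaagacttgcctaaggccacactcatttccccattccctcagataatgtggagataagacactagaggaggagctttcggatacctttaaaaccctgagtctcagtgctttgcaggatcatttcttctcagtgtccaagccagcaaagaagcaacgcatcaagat
Stfa2: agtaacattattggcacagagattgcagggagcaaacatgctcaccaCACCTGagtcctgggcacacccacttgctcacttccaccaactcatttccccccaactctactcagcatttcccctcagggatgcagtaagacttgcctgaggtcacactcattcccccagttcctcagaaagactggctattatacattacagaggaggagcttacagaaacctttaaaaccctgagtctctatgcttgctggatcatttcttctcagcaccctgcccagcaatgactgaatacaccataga
Stfa3: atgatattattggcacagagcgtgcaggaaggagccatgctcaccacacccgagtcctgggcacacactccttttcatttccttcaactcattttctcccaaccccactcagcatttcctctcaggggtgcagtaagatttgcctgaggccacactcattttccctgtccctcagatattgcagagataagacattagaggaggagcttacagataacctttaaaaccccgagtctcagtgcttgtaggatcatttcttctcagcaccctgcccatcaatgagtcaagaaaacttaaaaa
Aligned in pairs, the promoters were 78.9% identical between Stfa1 and Stfa2, 80.6% between Stfa1 and Stfa3 and 80.9% between Stfa2 and Stfa3. CACCTG, searched on both strands, began 201 bases before the start in Stfa1 and 203 bases before it in Stfa2. It was not among the letters of the Stfa3 window, and 20.2% of the 32851 promoters of the table hold it. GAGGAA, the core letters bound by the myeloid factor PU.1, lay on the opposite strand in all 3, at 178 bases before the start in Stfa1, 82 in Stfa2 and 135 in Stfa3, against a share of 28.3% over the table. TTNNGNAA, a loose form of the C/EBP motif, matched in Stfa1 and Stfa2, and 40.7% of the table's promoters hold it. No match overlapped another, and a match of letters is not evidence of binding.

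Several facts of the arrays bear on every monocyte value. Values are RMA-summarised log2 intensities, and "low" below means under the array's own 40th percentile, which ran from 4.28 to 4.50. Zeb2 read 8.74 to 9.84 in Zeb2-deficient monocytes, against 9.86 to 10.08 in control monocytes (-0.48 ± 0.24 SE, limma adjusted p = 0.272), and 7.10 to 8.25 in Zeb2-deficient neutrophils, against 6.86 to 7.54 in control neutrophils (0.49 ± 0.24 SE, adjusted p = 0.972). Its probe set summarises the whole transcript and does not check the deletion. Among the Zeb2-deficient monocyte arrays, number 2 stood apart: it was lowest for 18 of 22 mature neutrophil markers and 14 of 14 primary granule genes, highest for 16 of 18 Ly-6C(hi) monocyte markers, and highest for Zeb2 at 9.84. Control monocyte array 4 was highest of its group for 15 of the 22 neutrophil markers and 11 of the 14 primary granule genes. In bulk samples, fewer cells of a type and less RNA per cell cannot be told apart.

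Of the stefin A group, Stfa2 and Stfa3 were low in control monocytes and well above that level in Zeb2-deficient monocytes. Stfa3 (probe set 10439299) read 8.35, 6.32, 8.02 and 7.84 in the 4 Zeb2-deficient monocyte arrays, against 2.57, 3.06, 2.48 and 3.31 in the 4 control monocyte arrays. The groups did not overlap, and every control array was low. The means were 7.63 ± 0.90 and 2.85 ± 0.40 (SD, n = 4 each), a difference of 4.78 ± 0.33 (SE) and at least 9.74-fold. As the control arrays were low, this bound sets the mean of the Zeb2-deficient arrays against the arrays' 40th percentile. The difference was 5.22 without Zeb2-deficient array 2 and 4.65 without control array 4. It was 4.52 among the first 10 arrays in deposited order and 5.04 among the last 8, an order that the labels do not call a batch.

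Stfa2 (probe set 10439296) read 7.24, 5.24, 7.41 and 7.66 in Zeb2-deficient monocytes, against 3.38, 3.85, 3.95 and 3.99 in control monocytes. Again the groups did not overlap, and Zeb2-deficient array 2 was the lowest of its group. The means were 6.89 ± 1.11 and 3.79 ± 0.28 (SD, n = 4 each), a difference of 3.10 ± 0.40 (SE) and at least 5.82-fold. Leaving out array 2 gave 3.65, and leaving out control array 4 gave 3.15. The first 10 arrays gave 2.63 and the last 8 gave 3.57. Over all genes tested in monocytes, 5.11% were called higher and 2.44% lower at a limma adjusted p under 0.05, and 6.12% had all Zeb2-deficient arrays above all control arrays. Of the 4 measured members 2 did so, and since that comparison helped to choose them, nothing is read from the count and no p is given for a member in it.

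Cstdc6 (probe set 10439289) was low in most monocytes. It read 3.93, 2.97, 2.65 and 4.84 in Zeb2-deficient monocytes, against 2.10, 2.69, 2.89 and 2.55 in control monocytes. Only Zeb2-deficient array 4 exceeded its array's 40th percentile, and the groups overlapped, with a difference of 1.04 ± 0.35 (SE) for which no fold can be given. It was 0.62 without Zeb2-deficient array 4, 1.25 without array 2 and 1.15 without control array 4, and leaving out any 1 array gave 0.62 to 1.36.

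Cstb (probe set 10364375) was well expressed on every array and differed little between the 2 monocyte groups. It read 9.11, 9.36, 9.21 and 9.02 in Zeb2-deficient monocytes, against 9.32, 9.45, 9.42 and 9.45 in control monocytes. These groups overlapped, and the difference was -0.23 ± 0.11 (SE, n = 4 each). Its size was far below that of the differences of Stfa2 and Stfa3.

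**Figure D1:**
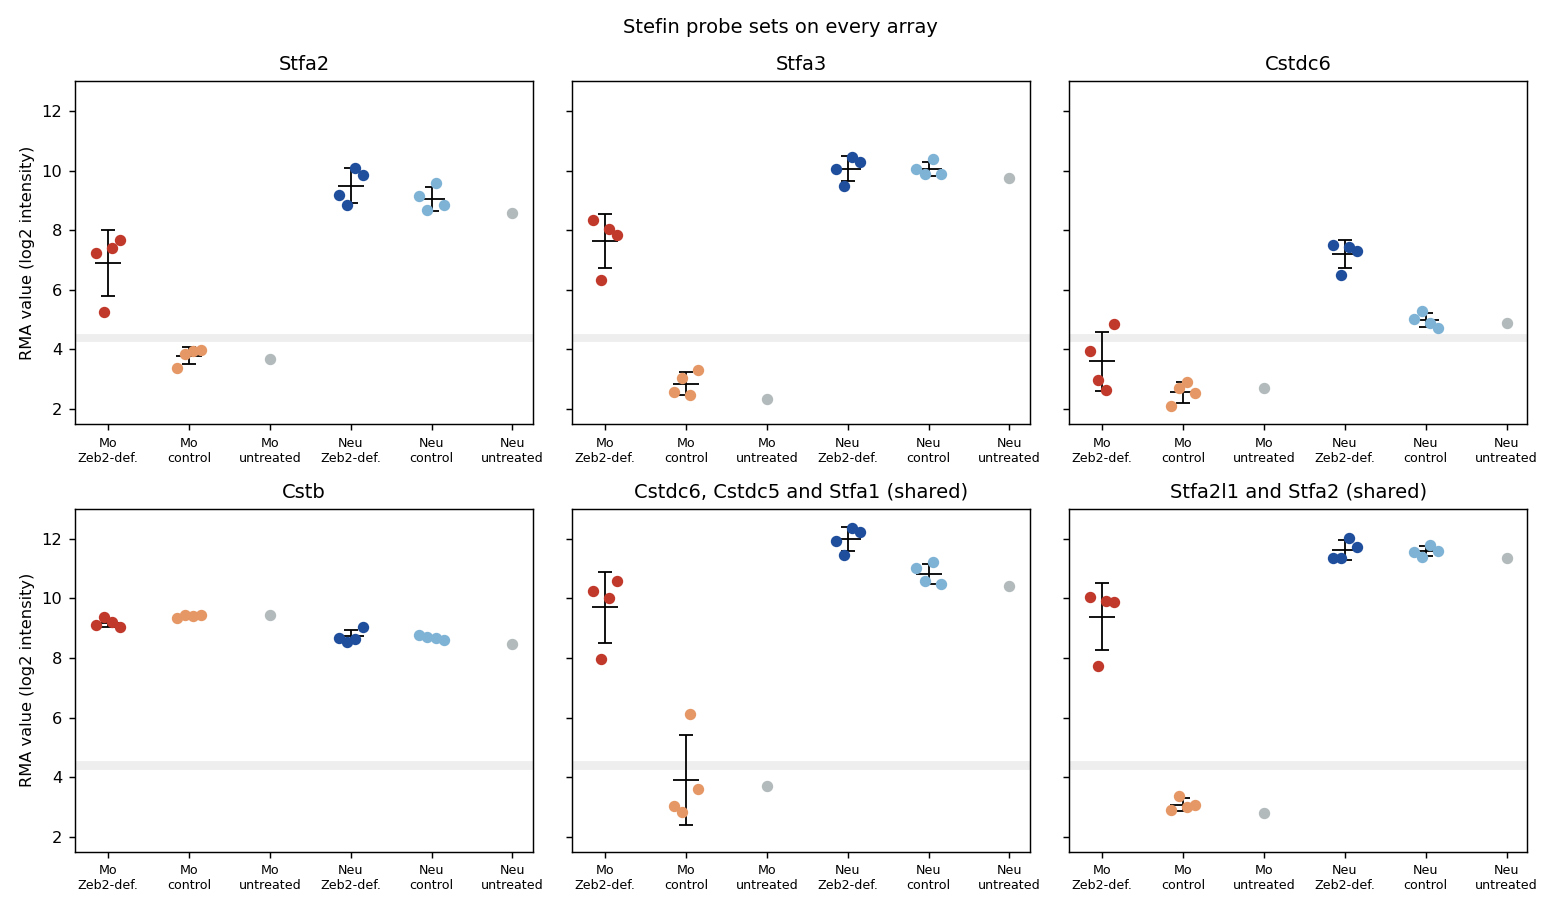
Deposited log2 intensity (vertical axis) of the 4 single-gene stefin probe sets and the 2 shared ones, with 1 point per array, in Zeb2-deficient (Zeb2-def.), control and untreated monocytes (Mo) and neutrophils (Neu); bars are the mean ± SD of 4 arrays and the grey band spans the arrays' 40th percentiles, 4.28 to 4.50. In monocytes Stfa3 lies at 6.32 to 8.35 in Zeb2-deficient arrays and at 2.48 to 3.31 in control arrays, while Cstb stays between 9.02 and 9.45.

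Stfa1 could be followed only through the probe set it shares with Cstdc6 and Cstdc5. That probe set read 10.24, 7.96, 10.003 and 10.57 in Zeb2-deficient monocytes, against 3.04, 2.82, 6.11 and 3.61 in control monocytes. Control array 4 was the one control above its 40th percentile, and the groups still did not overlap. The difference was 5.80 ± 0.61 (SE), 6.54 without control array 4 and 6.38 without Zeb2-deficient array 2.

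The probe set shared by Stfa2l1 and Stfa2 read 10.03, 7.71, 9.91 and 9.89 in Zeb2-deficient monocytes, against 2.90, 3.37, 2.99 and 3.07 in control monocytes. All 4 controls were low, so the fold is a bound, at least 32.8-fold, beside a measured difference of 6.30 ± 0.37 (SE), or 6.86 without Zeb2-deficient array 2. The lowest Zeb2-deficient array was again number 2, as for Stfa2, Stfa3 and the probe set with Stfa1.

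In neutrophils the picture differed between members. Stfa3, already high in control neutrophils, read 10.05, 9.47, 10.47 and 10.27 in Zeb2-deficient neutrophils, against 10.05, 9.90, 10.40 and 9.89 in control neutrophils. These arrays overlapped, and the difference was 0.01 ± 0.33 (SE), with a 95% interval of -0.69 to 0.70 and a limma adjusted p of 0.999. Stfa2 read 9.19, 8.83, 10.10 and 9.84 in Zeb2-deficient neutrophils, against 9.13, 8.67, 9.57 and 8.83 in control neutrophils. The arrays again overlapped, and its difference of 0.44 ± 0.40 (SE) had an interval of -0.40 to 1.28 and an adjusted p of 0.999 in limma. For Cstb the values were 8.68, 8.55, 8.63 and 9.02 in Zeb2-deficient neutrophils, against 8.75, 8.69, 8.68 and 8.60 in control neutrophils. Its difference was 0.04 ± 0.11 (SE), with an interval of -0.19 to 0.27 and a limma adjusted p of 0.999. An adjusted p above the threshold does not show that the levels were alike, and these intervals bound the differences. The SE of a gene pools its spread over all groups, and the monocyte comparisons use the same SE. For Stfa3 the SD was 0.90 in Zeb2-deficient monocytes, against 0.43 and 0.24 in Zeb2-deficient and control neutrophils. For Stfa2 it was 1.11, against 0.58 and 0.39. For these 2 genes the SE is thus wider than neutrophil arrays alone would give, and narrower than monocyte arrays alone would give.

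Cstdc6 stood higher in Zeb2-deficient neutrophils, with 7.51, 6.49, 7.44 and 7.31 against 5.03, 5.28, 4.89 and 4.73 in control neutrophils. The lowest Zeb2-deficient array was above the highest control. The means were 7.19 ± 0.47 and 4.98 ± 0.23 (SD, n = 4 each), a difference of 2.20 ± 0.35 (SE), or 4.60-fold. It was 1.84 in the first 10 arrays and 2.57 in the last 8. Of all genes tested in neutrophils, 0.105% were called higher and 0.0149% lower, and 1.84% had every Zeb2-deficient array above every control. Cstdc6 was selected on this comparison too, so its values are a description with no p, and nothing is read from its place among these genes.

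The probe set that Cstdc6 shares with Cstdc5 and Stfa1 read 11.91, 11.46, 12.35 and 12.22 in Zeb2-deficient neutrophils, against 11.00, 10.58, 11.21 and 10.47 in control neutrophils. The groups did not overlap, and the difference was 1.17, or 2.25-fold. Because Cstdc6 is annotated to it, its values are not independent of that choice either and are given with no p. The probe set of Stfa2l1 and Stfa2 read 11.34, 11.33, 12.03 and 11.72 in Zeb2-deficient neutrophils, against 11.54, 11.37, 11.79 and 11.59 in control neutrophils, a difference of 0.03 (two-sided exact permutation test, p = 0.943). Those arrays overlapped.

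**Figure D2:**
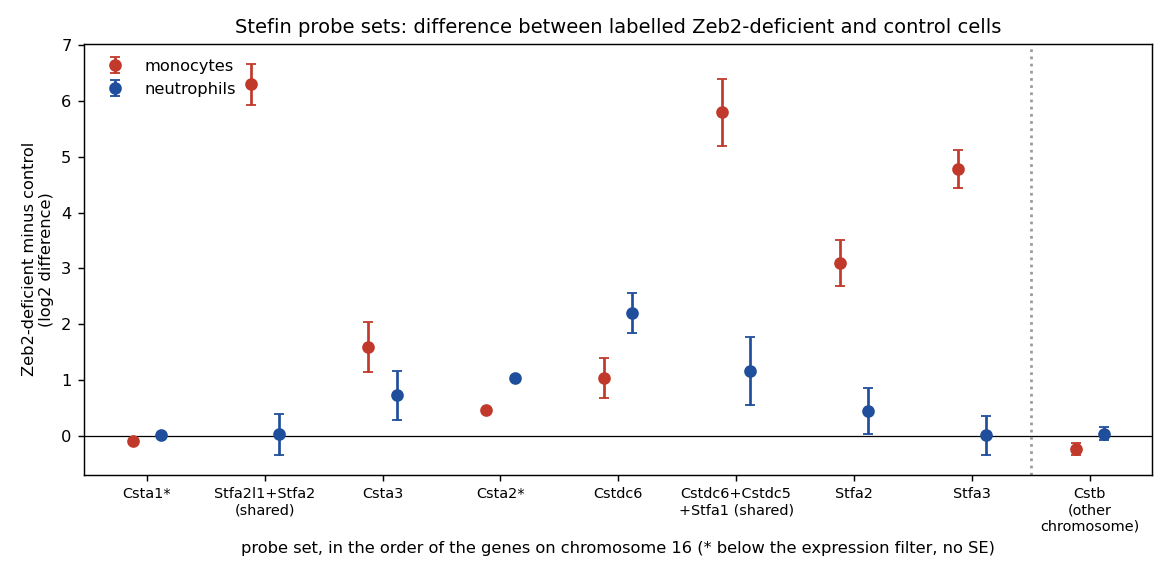
Zeb2-deficient minus control log2 difference ± SE (vertical axis) for each stefin A group probe set in the order of the genes on chromosome 16, with Cstb at the right; red points are monocytes and blue points neutrophils, 4 arrays per group, and an asterisk marks genes below the filter, which have no SE. Monocytes show 6.30 and 5.80 in the shared probe sets, 3.10 for Stfa2 and 4.78 for Stfa3, whereas the highest neutrophil point is Cstdc6 at 2.20.

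Between the cell types, the stefin A members were lower in control monocytes than in control neutrophils, and Cstb was higher. Stfa3 averaged 2.85 ± 0.40 in control monocytes and 10.06 ± 0.24 in control neutrophils (SD, n = 4 each), a monocyte minus neutrophil difference of -7.20 ± 0.33 (SE), at least 52.3-fold lower in monocytes. For Stfa2 the difference was -5.26 ± 0.40 (at least 26.0-fold lower), and for Cstdc6 it was -2.43 ± 0.35 (at least 1.55-fold lower). All 3 had no overlap between the cell types, as did 27.6% of all genes in that direction, with 28.7% called lower in monocytes. Cstb averaged 9.41 ± 0.06 in control monocytes and 8.68 ± 0.06 in control neutrophils, a difference of 0.73 ± 0.11, or 1.66-fold higher in monocytes. Its groups did not overlap either, as for 28.6% of genes in that direction, and 29.9% were called higher in monocytes. These shares give the background of a comparison that helped to choose the members.

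Among Zeb2-deficient cells the same contrast was -2.43 ± 0.33 for Stfa3, -2.60 ± 0.40 for Stfa2, -3.59 ± 0.35 for Cstdc6 and 0.45 ± 0.11 for Cstb (monocytes minus neutrophils, SE). In order of level, Stfa2 and Stfa3 were thus lowest in control monocytes, higher in Zeb2-deficient monocytes and highest in neutrophils of both genotypes, whose arrays overlapped. For Cstdc6 the order was control monocytes, Zeb2-deficient monocytes, control neutrophils and Zeb2-deficient neutrophils; Zeb2-deficient monocytes overlapped both of their neighbours in it, reaching 4.84 in array 4, against a lowest control neutrophil value of 4.73. Cstb was lowest in neutrophils of both genotypes, which overlapped, and higher in monocytes of both, which overlapped too.

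The untreated floxed controls gave 1 array each. In untreated monocytes Stfa2 read 3.68, Stfa3 2.33, Cstdc6 2.70 and Cstb 9.45. In untreated neutrophils Stfa2 read 8.58, Stfa3 9.74, Cstdc6 4.87 and Cstb 8.46. Stfa2, Stfa3 and Cstdc6 were low in the untreated monocytes. Of the other 5 values, Stfa2 in neutrophils lay farthest from the mean of the poly(I:C) controls of its cell type (-0.47), and with single arrays no test was made.

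Set against the control neutrophil level on the linear scale, Zeb2-deficient monocytes held intermediate amounts. Their geometric mean was 18.6% of it for Stfa3 (7.47% to 30.6% over the 4 arrays) and 22.4% for Stfa2 (7.15% to 38.1%). The shared probe set with Stfa1 stood at 45.9% (13.8% to 84.3%), and that of Stfa2l1 and Stfa2 at 21.9% (6.87% to 34.2%). The 22 mature neutrophil markers ran from 2.89% for Mmp9, a secreted metalloprotease, to 101% for Chil3, a chitinase-like protein, with a median of 31.1% in Zeb2-deficient monocytes, against 7.69% in control monocytes. In Zeb2-deficient neutrophils their median was 95.2%, and Cstdc6 stood at 460% (284% to 574%).

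**Figure D3:**
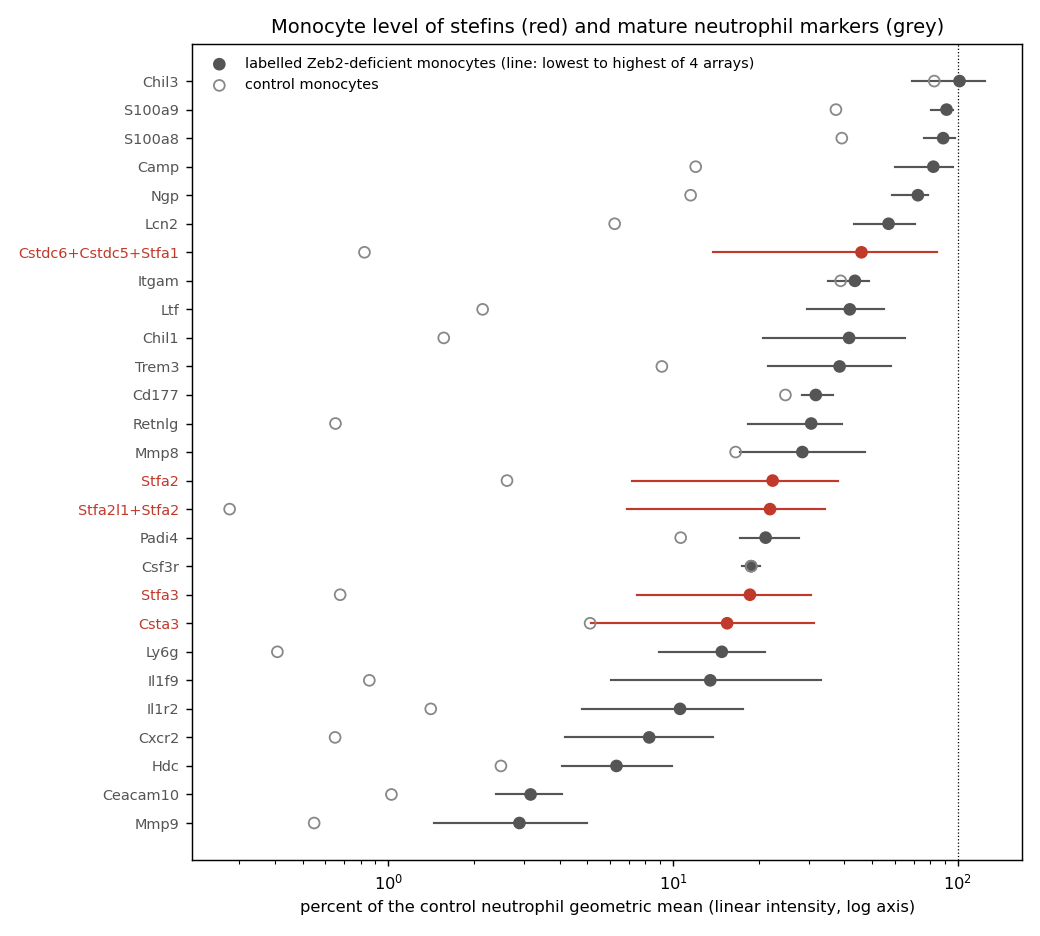
Level in Zeb2-deficient monocytes (filled points, with a line from the lowest to the highest of 4 arrays) and in control monocytes (open points) as a percent of the control neutrophil geometric mean, on a log axis, for stefin probe sets in red and mature neutrophil markers in grey. Stfa2 at 22.4% and Stfa3 at 18.6% lie inside the span of the markers, which runs from 2.89% to 101%. Chil3, the marker at 101%, already stands at 82.6% in control monocytes.

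Lists of mature neutrophil and primary granule genes were higher in the same monocyte arrays. Of the 22 mature neutrophil markers tested, 18 rose and none fell in Zeb2-deficient monocytes at a limma adjusted p under 0.05, with a median difference of 2.23, against -0.03 over all genes. Among all genes tested, 5.11% were called higher and 2.44% lower. The lists used here and below were chosen with earlier results of these data known, so their counts are descriptions. Ly6g, the surface protein used to define neutrophils, rose by 5.18 ± 0.22 (SE) and Retnlg, a resistin-like secreted protein, by 5.55 ± 0.24. Ltf, which encodes lactoferrin, rose by 4.28 ± 0.40. The summed linear level of the list was 31634 to 45552 in Zeb2-deficient monocytes, against 8997 to 22273 in control monocytes, and none of its genes was low on all Zeb2-deficient arrays.

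Primary granule genes, made at the promyelocyte stage, rose in 13 of 14 cases and fell in none, with a median of 2.34. Elane, the gene of neutrophil elastase, rose by 2.69 ± 0.58 (SE). Their sum was 7073 to 21460 in Zeb2-deficient monocytes, against 3613 to 7061 in control monocytes. In control neutrophils it was only 3738 to 5148.5, whereas the sum of the mature markers was 78990 to 82755 there. Elane averaged 4.98 in control neutrophils, 8.11 in control monocytes and 10.80 in Zeb2-deficient monocytes. Between control cell types, 5 of the 14 were called higher in monocytes and 5 lower, against 29.9% and 28.7% of all genes. Of the 18 Ly-6C(hi) monocyte markers, 8 fell and none rose, with a median of -0.75. Over 19 alternative settings that count ran from 0 among the first 10 arrays to 14 among the last 8, and it was also 14 without Zeb2-deficient array 2, whereas each of the other 7 monocyte arrays left out gave 2 to 5. Csf1r, the receptor for macrophage colony-stimulating factor, fell by 0.87 ± 0.23 on the log2 scale and Cx3cr1, a chemokine receptor, by 1.17 ± 0.27. That sum was 14980.0 to 28431 in Zeb2-deficient monocytes, against 28127 to 32254 in control monocytes. The part of other cell types in the stefin values was not tested. In neutrophils no member of these 3 lists was called in limma, and at an unadjusted p under 0.05 there were 0 of 22, 2 of 14 and 1 of 18.

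Stefin A genes are also made by cornifying skin, and eosinophils and mast cells could be carried in a sort. Of 7 keratinocyte and cornified layer genes tested, none was called in monocytes or neutrophils by limma (0 and 1 at an unadjusted p under 0.05), and the list summed to 278 to 327 in Zeb2-deficient monocytes, against 289 to 337 in control monocytes. Low on all Zeb2-deficient monocyte arrays were 10 of the list's 17 genes on the array, and 11 were low on all control ones. Krt5, Ivl and Lor were among them in both groups. Others were not, such as Tgm3, which averaged 5.28 in Zeb2-deficient and 5.31 in control monocytes, and Tgm1, at 5.08 and 5.11. Of 6 eosinophil, mast cell and basophil genes, 1 rose in monocytes, Siglecf, an eosinophil surface lectin, by 1.10 ± 0.23 (SE, limma adjusted p = 0.0062), a call that was lost among the first 10 arrays and with only the compared groups in the fit. The largest difference among these 6 did not pass the test: Mcpt8, a basophil granule protease, averaged 6.09 in Zeb2-deficient monocytes and 4.68 in control monocytes (1.41 ± 0.45 SE, limma adjusted p = 0.065), and its neutrophil difference was 1.14 (adjusted p = 0.891). Of the 16 genes of that list on the array, 10 were low on all Zeb2-deficient monocyte arrays and 11 on all control ones. Epx, Cpa3 and Fcer1a were among them in both groups. The list summed to 249.5 to 478 in Zeb2-deficient monocytes, against 255 to 265 in control monocytes.

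The proteases were measured next to their inhibitors. Of 11 lysosomal cysteine proteases on the array, the cathepsins and Lgmn (legumain, of another protease family), 9 passed the filter, while Ctsk and Ctsw did not. In monocytes 1 of the 9 fell and none rose, with a median of -0.44, against -0.03 over all genes: Ctss, the antigen-processing cathepsin S, averaged 10.35 in Zeb2-deficient monocytes and 11.00 in control monocytes (-0.65 ± 0.19 SE, limma adjusted p = 0.048). That call was lost with the replicate number as a block and in most other settings, and Ctss also stands in the monocyte list above. Differences for the rest were -0.78 for Lgmn, -0.61 for Ctso, -0.46 for Ctsb, -0.44 for Ctsh, -0.35 for Ctsc, -0.21 for Ctsz, -0.16 for Ctsf and 0.06 for Ctsl. None of these 8 passed the test. In neutrophils no protease of the list was called in limma (1 at an unadjusted p under 0.05), and the median difference was -0.03.

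Between control cell types, 7 of the 9 were called higher in monocytes and none lower, against 29.9% and 28.7% of all genes. This is the opposite direction to Stfa2, Stfa3 and Cstdc6 and that of Cstb. Ctsc, which activates granule serine proteases, differed by 4.76 and Ctss by 4.20 (control monocytes minus control neutrophils).

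Of the other cystatins, 19 were on the array and 4 passed the filter. In monocytes 2 of the 4, Csta3 and Cst7, were called higher and none lower at a limma adjusted p under 0.05. Over all genes the shares were 5.11% and 2.44%, but nothing is read from this count, since it includes Csta3. Csta3, a stefin A relative, read 5.55, 2.95, 4.46 and 5.18 in Zeb2-deficient monocytes, against 2.80, 2.59, 3.50 and 2.87 in control monocytes. The groups overlapped through Zeb2-deficient array 2, and the difference was 1.60 ± 0.43 (SE). Csta3 lies in the gene cluster of the members, which this comparison helped to choose, and its probes may bind them. Its values are therefore not independent of that choice and are given with no p, and nothing is read from its call. All 4 controls were low, which leaves a bound of at least 1.14-fold. Cst7, which encodes cystatin F, an inhibitor of cathepsins in secretory granules, averaged 7.36 in Zeb2-deficient monocytes and 6.01 in control monocytes (1.35 ± 0.35 SE, limma adjusted p = 0.025). Both calls were lost when any of 6 single arrays was left out.

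Cst3, the secreted cystatin C, differed by -0.33 ± 0.10 in monocytes (adjusted p = 0.059) and Cst11 by 0.10 ± 0.10 (adjusted p = 0.664). In neutrophils none of the 4 was called in limma (0 at an unadjusted p under 0.05), with Csta3 at 0.73, Cst7 at 0.33, Cst3 at 0.06 and Cst11 at 0.10. Csta1 and Csta2 were below the filter, with Csta2 at 4.80 in Zeb2-deficient neutrophils and 3.77 in control neutrophils on average. The remaining cystatins on the array averaged below the 40th percentile in every group.

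**Figure D4:**
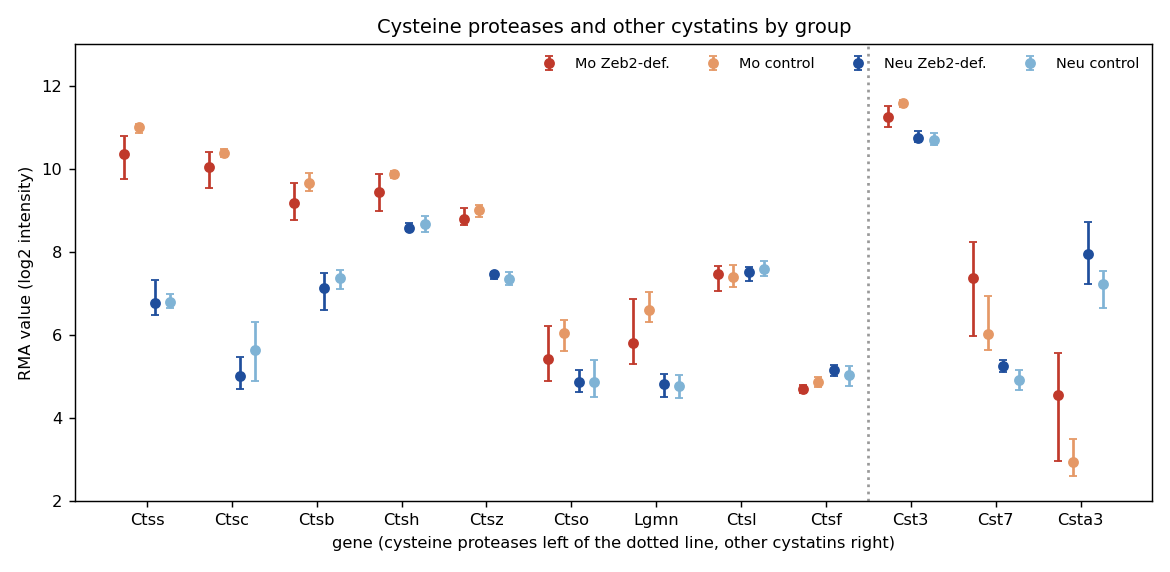
Group mean of the log2 intensity (vertical axis) with bars from the lowest to the highest of 4 arrays for the 9 cysteine proteases tested and 3 other cystatins, in Zeb2-deficient and control monocytes (Mo) and neutrophils (Neu). Ctss lies at 10.35 and 11.00 in Zeb2-deficient and control monocytes and near 6.8 in both neutrophil groups.

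Inhibitors of other protease classes were measured through 12 genes that passed the filter. Of these 2 rose and 1 fell in Zeb2-deficient monocytes, against 5.11% and 2.44% of all genes. Serpinb1a, an intracellular inhibitor of neutrophil serine proteases, rose by 2.16 ± 0.28 (SE) and Wfdc21, a small secreted protein with a whey acidic protein domain, by 2.53 ± 0.40. Both are neutrophil-rich genes here, at -2.57 and -4.64 in control monocytes minus control neutrophils. In that comparison 6 of the 12 were called lower and 4 higher, against 28.7% and 29.9% of all genes. Wfdc17, of the same domain family, fell by 0.72 ± 0.21 on the log2 scale (limma adjusted p = 0.045), a call lost in 12 of 19 alternative settings. In neutrophils none of the 12 was called in limma, and 3 had an unadjusted p under 0.05.

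Within groups, the deviations of Stfa2 and Stfa3 from the group means correlated at r = 0.884 over the 16 poly(I:C) arrays. Zeb2-deficient monocyte array 2, far below its group for both (5.24 and 6.32), weighs heavily in this value, which was not computed without it. Over Zeb2-deficient monocyte arrays 1, 3 and 4, Stfa2 rose (7.24, 7.41 and 7.66) while Stfa3 fell (8.35, 8.02 and 7.84). The correlation of deviations was 0.490 for Stfa2 and Cstdc6 and 0.382 for Stfa3 and Cstdc6, and with Cstb all 3 lay between -0.17 and -0.13. Relatives may share probes' targets, and all genes of an array share its sorted cells, so these are descriptions. Over all 18 arrays, the genes with levels most like Stfa3 were Asprv1 (r = 0.991), Ly6g (0.989) and Ckap4 (0.987). Those most like Stfa2 were Klf5 (0.988), Chst11 (0.987) and Hacd2 (0.986). Cstdc6 was most like Dnah6 (0.940), Itgax (0.930) and Rragd (0.930). Cstb was most like Cst3 (0.982), Apoe (0.976) and Cd68 (0.969). By deviations within groups the nearest genes were Siglecg for Stfa2 (0.943), Rhbdf1 for Stfa3 (0.900), Cox7a1 for Cstdc6 (0.815) and Ifi209 for Cstb (0.912).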

How the data were processed

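Total RNA of sorted cells was amplified and labelled for Affymetrix arrays, per the labels' protocols. RMA produced the deposited log2 intensities, per the submitters' processing notes. The software, its version and a genome build were not given in those sources. RMA quantile normalization assumes like distributions across the 2 cell types. Of 30177 probe sets, 21789 had 1 symbol, 1621 several and 6767 none in the platform annotation. Where a gene had more than 1 probe set (999 genes), that with the highest mean over arrays was used. A gene was tested if it exceeded the array's 40th percentile on at least 4 of 18 arrays.

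The main model was fitted in R 4.3.3 with limma 3.58.1 over all 18 arrays (group means, variance trend, 12 residual degrees of freedom), with Benjamini-Hochberg adjustment over 13387 genes at 0.05, two-sided, and the code was tested on simulated data. Shared probe sets were fitted with all 19665 past the filter, and that of Stfa2l1 and Stfa2 was tested by exact permutation (SciPy 1.17.1), both added after seeing the data. Promoters were aligned with Biopython 1.88. The members and gene lists were chosen with earlier results of these data known. Named genes are the members, all cathepsins and cystatins past the filter, up to 4 genes with the largest change per other list, and the 3 most correlated with each member. Outside that rule, and after their values were seen, Mcpt8, Tgm1, Tgm3, defining markers that were low and the extremes among neutrophil markers were named.

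Replicate numbers come from the labels. Deviations of same-numbered Zeb2-deficient and control arrays correlated at 0.372, 0.428 and 0.290 in monocytes and 0.183, 0.378 and 0.193 in neutrophils. Within a cell type the numbers were fitted as pairs in an alternative. Differently numbered arrays were not compared, and replicates 1 and 2 share the first array set, so these correlations cannot show pairing. Same-numbered monocyte and neutrophil arrays of a genotype correlated at 0.0591 to 0.259, and the cell types were not taken as paired. Other alternatives left out each array, renormalized, changed the filter, or used the first 10 and last 8 deposited arrays as sets.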

Additional observations from a re-analysis of the deposited data

Results flagged for a closer look

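In 96 checks of a single array against its group of 4, 5 were past Dixon's 95% critical value, and 3 of these concern probe sets past the filter and are given here. Chance alone marks about 1 group in 20, and 72 of the checks were on probe sets past the filter. Zeb2-deficient monocyte array 2 lay far below the other 3 for Stfa2, at 5.24, and for the probe set shared by Stfa2l1 and Stfa2, at 7.71. Both probe sets are annotated to Stfa2, so they are not separate observations. Control monocyte array 4 lay far above the other 3 controls for Cst7, at 6.92.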

How the results depend on the processing

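Each of the 4 measured members had 1 probe set of its own, so the planned change of probe set could not be run. The shared probe sets annotated to Stfa2 and to Cstdc6 gave monocyte differences of 6.30 and 5.80, against 3.10 and 1.04 in their own. The described differences of members in monocytes and between cell types, and that of Cstdc6 in neutrophils, kept their sign in the alternatives run. The tested neutrophil differences ran from 0.11 to 0.77 for Stfa2 (0.24 to 0.66 with single arrays left out), from -0.21 to 0.22 for Stfa3 and from -0.11 to 0.19 for Cstb. The described difference of Cstdc6 in neutrophils was 1.84 in the first array set alone and 2.57 in the second alone, and leaving out single arrays gave 2.10 to 2.44 (2.10 without Zeb2-deficient replicate 1). Stfa2, Stfa3 and Cstb were called in neutrophils in 0 of 19, with adjusted p of 0.246 or more in each. Control monocytes minus control neutrophils differed for Cstdc6 by -2.76 in the first array set and -2.09 in the second, and for Cstb by 0.66 and 0.80; the cause was not tested. With the replicate block, the differences were 2.28 for Cstdc6 in neutrophils, and 2.91 for Stfa2 and 4.70 for Stfa3 in monocytes. That block changed the call of Ctss, the 1 cathepsin called lower in monocytes, to 0 called, likewise Wfdc17 among the other inhibitors, and no other list call by over 1.5 times. The number of such proteases called lower was 3 with the array set as a block and 5 in the second array set alone or without Zeb2-deficient monocyte replicate 2, and 0 without any other single monocyte array. The 2 other cystatins called higher in monocytes were 0 in the first array set, with only the compared groups in the fit, and without Zeb2-deficient replicate 1, 3 or 4 or control replicate 1, 2 or 5; 1 was called lower with the array set as a block, in the second set, at the 60th percentile filter and without Zeb2-deficient replicate 2. Across settings 15 to 18 neutrophil markers and 11 to 13 primary granule genes were called higher in monocytes, and 0 to 14 monocyte markers lower (13 with the array set as a block, 5 after renormalizing, 4 with only the compared groups). Eosinophil list calls were 0 to 2.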
